A study of Mus musculus with 4 samples.

Results

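The genes described here encode 10 RNA-binding and RNA-granule proteins that the lens expresses, namely Tdrd7, Rbm24, Rbm38, Caprin1, Caprin2, Stau1, Stau2, G3bp1, Elavl1 and Ptbp1. They were chosen by name, by taking every array probe that the normalized table files under one of these symbols. This gave 21 of 45263 probes, and all 10 genes were among the 11517 genes that passed the filter on detection. The signals were measured in mouse lenses at postnatal day 6 on Illumina MouseWG-6 v2.0 BeadChips, which report a fluorescence intensity for each probe. There were 2 Celf1 cKO lenses and 2 Control lenses, with RNA of 1 lens on each array, named A and B in each group.

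In Celf1 cKO mice one Celf1 allele was a germline knockout made by lacZ knock-in, and the other had exon 5 between loxP sites. The exon was deleted by a GFP-Cre fusion driven by a Pax6 lens enhancer, which acts from the lens placode onward. Control mice were heterozygous for the same knockout (Celf1 lacZKI/+), so that all 4 lenses came from mice with at least 1 disrupted allele and the comparison is not with wild-type mice. All were of mixed C57BL/6J and FVB background. Whether the 2 lenses of a group came from different litters is not given in the sources used here, so the p-values measure only the spread between these samples.

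Lens fiber cells degrade their nuclei and organelles as they mature and cannot replace their mRNA afterwards. RNA-binding proteins, which set how long an mRNA lasts, how it is spliced, where it is carried and when it is translated, therefore have a large part in lens biology, and loss of TDRD7, RBM24 or CELF1 causes cataract or other lens defects in animals. Several of these proteins gather with mRNA in cytoplasmic granules: stress granules hold stalled translation complexes, processing bodies hold decay factors, and transport particles carry mRNA along the cytoskeleton. CELF1 itself binds GU-rich elements of mRNA and often shortens the life of its targets.

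The arrays of the groups differed as a whole. The cKO arrays had 16261 to 16925 probes above background and the Control arrays 14180 to 14542, and the brightness of an array cannot be told apart from genotype here. Celf1, the targeted gene, had log2 signals of 7.51 and 7.01 in cKO lenses against 8.78 and 8.62 in Control lenses. It was reduced by 2.72-fold (limma adjusted p = 0.0109), and leaving out Control B raised the adjusted p to 0.0595. The call also ended with the deposited table at values under 1 set to 1 (0.0762), without the detection filter (0.0732) and with treat, limma's test of a change beyond the threshold (0.13). With no normalization between arrays the log2 fold change was -0.60 in place of -1.44, or -1.17 relative to the median of all genes. Of the 7 lens fiber markers, 6 were detected on every array, while 0 of 5 retina markers and 0 of 5 muscle markers were detected on any. Bfsp2, a beaded filament protein of fibers, and Foxe3, a transcription factor of the lens epithelium, were reduced (log2 fold changes of -0.74 and -0.82, limma adjusted p = 0.0255 and 0.0177), each the single gene called among the 6 fiber and 3 epithelial markers tested. Of these markers 5 fiber and all 3 epithelial ones were lower in cKO lenses, the epithelial ones at an unadjusted p under 0.05. Over all 11517 genes tested, 5635 were lower, 31.9% had such a p in either direction and 5.67% were called reduced. The summed intensity of the fiber list on the deposited normalized scale was 100743 to 107372 in cKO lenses against 179285 to 183623 in Control lenses, and that of the epithelial list was 186.3 to 328.3 against 451.3 to 488.4. On the quantile normalized log2 scale the median change of the fiber markers was -0.14 and that of the epithelial markers -0.82. Macrophage markers were detected in part, 4 and 5 of 5 on the cKO arrays and 2 of 5 on each Control array, with a summed normalized intensity of 123.2 to 125.8 against 98.8 to 106.3, and 2 of the 4 tested, C1qb and Cd68, were called elevated by at least 1.23-fold and 1.27-fold (limma adjusted p = 0.0222 and 0.0381). The sex of the mice is not given. The X-linked RNA Xist exceeded the Control lenses by at least 6.33-fold in the cKO lenses (limma adjusted p = 9.67e-04). Y-linked Ddx3y had log2 signals of 6.86 and 4.83 in cKO lenses and of 9.06 and 8.88 in Control lenses (log2 fold change -3.12, adjusted p = 0.0211), and Y-linked Uty, above background in 0 Control lenses, exceeded them by at least 1.03-fold in the cKO lenses and was not called (adjusted p = 0.226). Genotype and sex therefore cannot be told apart. The part of brightness, fiber or epithelial content, macrophages or sex in the results below was not tested.

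Each probe is a stretch of 50 bases that captures the labelled RNA of its gene. One probe of each reduced gene is printed here, in the direction of the mRNA, 5′ to 3′, to show the stretch of RNA that was measured. For Tdrd7, Rbm24 and Caprin2 it is the single retained probe, and for Rbm38 it is 1 of 3. The C1qdc1 probe printed last was not part of the Caprin2 value. The files place the Tdrd7 probe at chr4:46047295-46047344 (plus strand), the Rbm24 probe at chr13:46514154-46514203 (plus strand) and the Rbm38 probe shown at chr2:172848348-172848397 (plus strand). The Caprin2 probe lies at chr6:148825003-148825052 (minus strand). The files name no genome build and do not say in which exon a probe lies. Capitals mark the 47 bases that the Caprin2 probe shares with a second probe, which is filed under C1qdc1, an older name of Caprin2.
Tdrd7: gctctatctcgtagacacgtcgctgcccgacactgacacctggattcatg
Rbm24: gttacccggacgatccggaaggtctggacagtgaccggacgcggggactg
Rbm38: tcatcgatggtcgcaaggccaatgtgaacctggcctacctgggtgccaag
Caprin2: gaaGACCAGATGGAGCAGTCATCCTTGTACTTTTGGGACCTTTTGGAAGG
C1qdc1: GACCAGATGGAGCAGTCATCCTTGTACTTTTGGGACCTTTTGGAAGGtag

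In cKO lenses 4 of the 10 genes were called reduced, Tdrd7, Rbm24, Rbm38 and Caprin2, and 0 were called elevated. With Stau2, 5 of the 10 had an unadjusted p under 0.05, all of them lower in cKO lenses, beside 31.9% of all genes at that level in either direction. The thresholds for a call were 0.05 for the limma adjusted p, 0.58 for the size of the log2 fold change and 4.6 for the mean log2 signal. Over all genes tested, 5.67% were called reduced, 6.01% were called elevated and 11.7% were called in either direction. The median log2 fold change of the 10 genes was -0.42, and that of all genes was 0.01. The signals of the groups did not overlap for 8 of the 10 genes, beside 62.4% of all genes. In RNA of whole lenses, fewer cells that express a gene and less of its RNA per cell cannot be told apart.

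**Figure D1:**
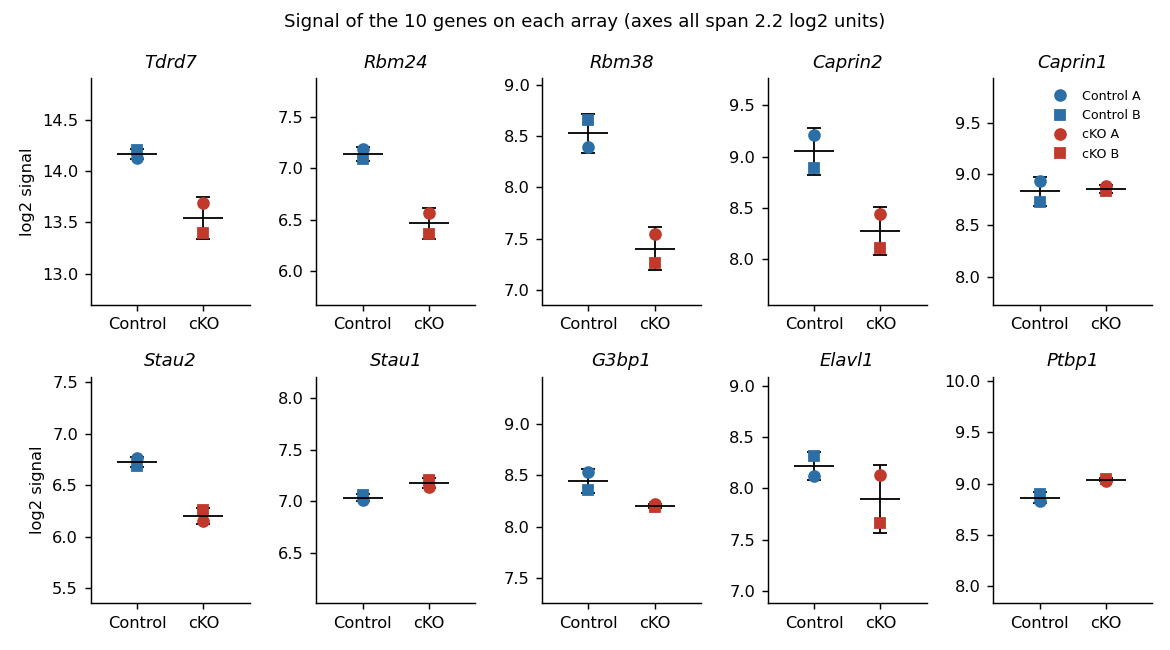
Log2 signal (background corrected and quantile normalized) of each of the 10 genes on the 4 arrays, Control at left and Celf1 cKO at right; circles are replicate A, squares replicate B, and bars give the mean ± SD (n = 2). Tdrd7, Rbm24, Rbm38, Caprin2 and Stau2 lay lower on both cKO arrays by over 0.5 in the mean, while Caprin1 and Elavl1 overlapped between the groups.

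Tdrd7 encodes a Tudor domain protein of cytoplasmic RNA granules, whose loss causes cataract in humans and mice. Its single probe had log2 signals of 13.69 and 13.40 in cKO lenses and of 14.13 and 14.20 in Control lenses. Both cKO lenses lay below both Control lenses. The mean fell from 14.17 ± 0.05 (SD, n = 2) to 13.54 ± 0.20 (SD, n = 2), a 1.54-fold reduction. On the log2 scale the change was -0.62 ± 0.16 (SE, 95% interval -0.99 to -0.25, limma adjusted p = 0.0478). On the deposited normalized scale the intensity was 13937 and 11191 in cKO lenses against 24304 and 27597 in Control lenses, a log2 fold change of -1.05 (adjusted p = 0.081 with values under 1 set to 1, and 0.0201 with 16 added to each value). Before scaling, the intensities overlapped, with 15311 and 12628 in cKO lenses and 16698 and 14331 in Control lenses. By the adjusted p of the main setting the call was the weakest of the 4. Tested among probes instead of genes, the same values gave a limma adjusted p of 0.056. Among 18 alternatives with all 4 arrays Tdrd7 stayed called in 12, beside 11 for Rbm24 and 13 each for Caprin2 and Rbm38. With any 1 sample left out its log2 fold change was -0.76 to -0.48, and the call was lost.

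Rbm24 and Rbm38 encode closely related proteins with a single RNA recognition motif. RBM24 is known to stabilize mRNA in the eye and to guide splicing in muscle, and RBM38 is a p53-induced protein that stabilizes p21 mRNA. Rbm24 had log2 signals of 6.57 and 6.36 in cKO lenses and of 7.19 and 7.09 in Control lenses. The groups did not overlap, and the gap between them was wider than the spread within either. The log2 fold change of Rbm24 was -0.68 ± 0.15 (SE, 95% interval -1.03 to -0.33, limma adjusted p = 0.0335), a 1.60-fold reduction. With any 1 sample left out, its adjusted p was 0.0691 to 0.231. With no background correction and with an offset of 50 the log2 fold change was -0.47 and -0.50, under the fold threshold (adjusted p = 0.0239 and 0.0252).

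Rbm38 changed most among the 10 genes. Averaged over its 3 probes, its log2 signal was 7.55 and 7.26 in cKO lenses and 8.39 and 8.66 in Control lenses. The log2 fold change was -1.12 ± 0.17 (SE, 95% interval -1.53 to -0.71, limma adjusted p = 0.0145), a 2.17-fold reduction. The 3 probes, which start at bases 425, 1495 and 1516 of their transcripts, were each called reduced, with log2 fold changes of -1.08, -1.12 and -1.16. The files place the probe at base 1495 on chromosome 2, 170.9 kb from the nearest of the others, which lie 11.6 kb from each other, so its position in the files is uncertain. Rbm38 stayed called without cKO A or Control A, and its adjusted p rose to 0.0906 without cKO B and to 0.0722 without Control B.

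Caprin1 and Caprin2 are paralogs that bind RNA and associate with translation. CAPRIN1 partners with G3BP1 in stress granules, while CAPRIN2 is strongly expressed in lens fibers and its loss in mice gives lens defects. Caprin2 had log2 signals of 8.44 and 8.11 in cKO lenses and of 9.21 and 8.89 in Control lenses. The groups did not overlap. The log2 fold change was -0.77 ± 0.18 (SE, 95% interval -1.21 to -0.34, limma adjusted p = 0.0412), a 1.71-fold reduction. This rests on 1 of its 2 probes, since the probe at base 3392 was detected on 0 arrays. The overlapping probe filed under C1qdc1 had log2 signals of 8.02 and 7.63 in cKO lenses against 8.88 and 8.79 in Control lenses, which differ by -1.01 ± 0.18 (SE, limma adjusted p = 0.0186 over all probes). Since it reads nearly the same bases, it is a second reading of one site and not a second site. Counting it with Caprin2, a choice made after its values were seen, gave -0.89 (adjusted p = 0.0255). With any 1 sample left out, the adjusted p of Caprin2 was 0.0726 to 0.239.

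Caprin1 showed no such difference. Its log2 signal, averaged over 2 probes, was 8.88 and 8.83 in cKO lenses and 8.93 and 8.73 in Control lenses, so the cKO values lay between the Control values. The log2 fold change was 0.03 ± 0.15 (SE, limma adjusted p = 0.918), and its 95% interval of -0.32 to 0.37 does not reach the threshold of 0.58 in either direction.

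**Figure D2:**
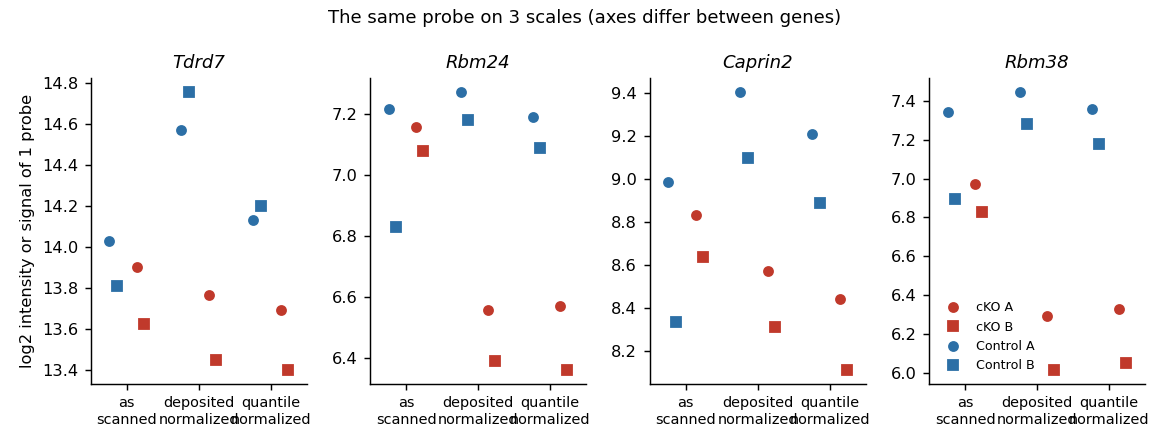
The same probe of Tdrd7, Rbm24, Caprin2 and Rbm38 (the probe at base 425) on 3 scales, each as log2 of the intensity or signal: as scanned, deposited normalized, and background corrected and quantile normalized; blue is Control, red is cKO, circles are replicate A and squares replicate B. As scanned, the groups overlapped for each of the 4 probes, and on both normalized scales the cKO values lay below the Control values for each of the 4 probes.

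The reductions depended on how the brightness of the arrays was brought to a common scale. As scanned, the Rbm24 intensity was 142.8 and 135.3 in cKO lenses and 149.0 and 113.8 in Control lenses, and that of the Caprin2 probe was 456.5 and 398.0 against 507.7 and 322.9. Control B, the dimmest array, held the lowest value of both. For Rbm38, the probe at base 425 overlapped as scanned, but the probes at bases 1495 and 1516 did not. Their intensities were 377.1 and 366.1 in cKO lenses against 405.7 and 477.8 in Control lenses, and 386.0 and 314.6 against 422.1 and 419.6. With no normalization between arrays all genes had a median log2 fold change of 0.57, and relative to that median Tdrd7 stood at -0.72, Rbm24 at -0.48, Caprin2 at -0.50 and Rbm38 at -0.86. None of the 4 was called reduced on that scale, where Rbm24 and Caprin2 had log2 fold changes of 0.09 and 0.07. Caprin1, Stau1, Ptbp1 and G3bp1 were called elevated there, beside 5789 of all 11517 genes called in either direction.

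Stau1 and Stau2 encode Staufen proteins, which bind double-stranded RNA and carry mRNA in transport particles. Stau2 had log2 signals of 6.15 and 6.26 in cKO lenses and of 6.76 and 6.69 in Control lenses, averaged over 2 probes. The groups did not overlap, and the distance between their means was several times the SD of 0.08 and 0.05 within them. The difference of -0.52 ± 0.14 on the log2 scale (SE, 95% interval -0.85 to -0.19, limma adjusted p = 0.0552) passed neither the threshold on p nor that on fold. With medians matched over the probes that all 4 samples detected it was called (-0.62, adjusted p = 0.0189), where the median of all genes was -0.19. Its probes gave -0.55 and -0.50. Stau1, with 7.14 and 7.21 in cKO lenses and 7.01 and 7.06 in Control lenses, differed the other way by 0.14 ± 0.14 (SE, limma adjusted p = 0.532).

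The other 3 genes were not called. G3bp1, the core scaffold of stress granules, had log2 signals of 8.22 and 8.19 in cKO lenses and of 8.53 and 8.36 in Control lenses, and its log2 fold change was -0.24 ± 0.14 (SE, limma adjusted p = 0.292). Its 2 probes differed, with -0.13 near base 444 and -0.35 near base 2471 of the transcript. Elavl1 encodes HuR, which stabilizes mRNA with AU-rich elements. Its log2 signal was 8.13 and 7.66 in cKO lenses and 8.12 and 8.31 in Control lenses, so the groups overlapped, and the log2 fold change was -0.32 ± 0.19 (SE, limma adjusted p = 0.296). The cKO lenses differed from each other by more than the groups did. Ptbp1 encodes a splicing repressor that binds pyrimidine-rich RNA. It had log2 signals of 9.03 and 9.05 in cKO lenses and of 8.83 and 8.90 in Control lenses, and its log2 fold change was 0.17 ± 0.14 (SE, limma adjusted p = 0.427). Of its 6 probes 4 were retained, with log2 fold changes from 0.05 to 0.35. The 2 that were not retained overlap each other by 46 bases and were detected on 0 and 1 arrays. The 95% intervals of G3bp1, -0.58 to 0.10, and of Elavl1, -0.77 to 0.13, reach or pass the fold threshold, so a reduction of that size could not be told from no change with these arrays.

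**Figure D3:**
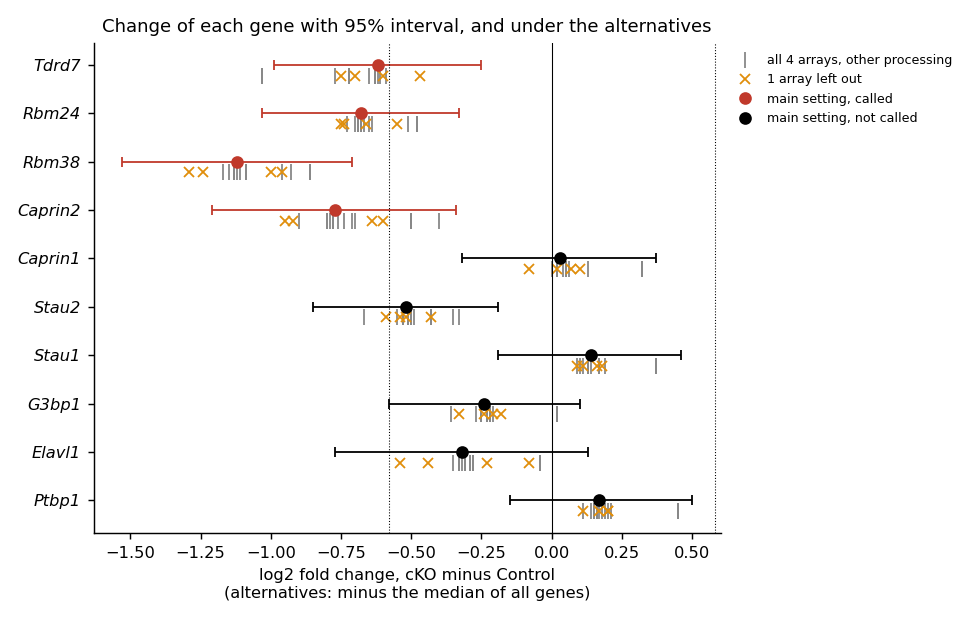
Log2 fold change of each gene, cKO minus Control, with its 95% interval (dots, red where called), and below each dot the value under other processing of all 4 arrays (grey ticks) and with 1 array left out (orange crosses), both with the median of all genes subtracted; dotted lines mark the threshold of 0.58. Tdrd7, Rbm24, Rbm38, Caprin2 and Stau2 stayed below the median of all genes at every tick and cross, Rbm38 from -1.17 to -0.86 at the grey ticks.

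Probe by probe, 18 of the 21 probes were retained, and 5 of them were called reduced, the 3 of Rbm38 and 1 each of Rbm24 and Caprin2. Over all 16262 probes tested, 5.40% were called reduced. The standard error over beads was 2.13% to 14.3% of the signal for the retained probes, and its median was 4.53%. The highest of these, 14.3%, was a Caprin1 probe on Control B. Over all probes above background, the median was 7.26% on Control B, and 4.36%, 4.39% and 4.4% on cKO A, cKO B and Control A.

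The ratio of paralogs within an array does not depend on a common factor of brightness. Caprin2 relative to Caprin1 had log2 ratios of -0.44 and -0.72 in cKO lenses and of 0.28 and 0.16 in Control lenses. The difference of -0.80 is a 1.74-fold lower ratio in cKO lenses. Stau2 relative to Stau1 had log2 ratios of -1.0 and -0.95 against -0.25 and -0.38, a difference of -0.66 and a 1.58-fold lower ratio. In both pairs the cKO and Control ratios lay apart, and with no normalization between arrays the differences were -0.82 and -0.80. Rbm24 relative to Rbm38 moved the other way, with -0.98 and -0.90 in cKO lenses against -1.20 and -1.57 in Control lenses, a difference of 0.44 that was 0.25 without Control B. With no background correction the Stau2 difference was -0.42, and without the detection filter, which brings in the undetected Caprin2 probe, the Caprin2 difference was -0.44. The exact permutation test (two-sided) gave p = 0.333 for each of the 3 pairs, also after adjustment over the 3, which is the smallest p that 2 against 2 arrays allow. The probes of the paralogs share runs of at most 8 bases. The size of a log2 ratio on its own compares different probes and is not a ratio of transcripts.

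**Figure D4:**
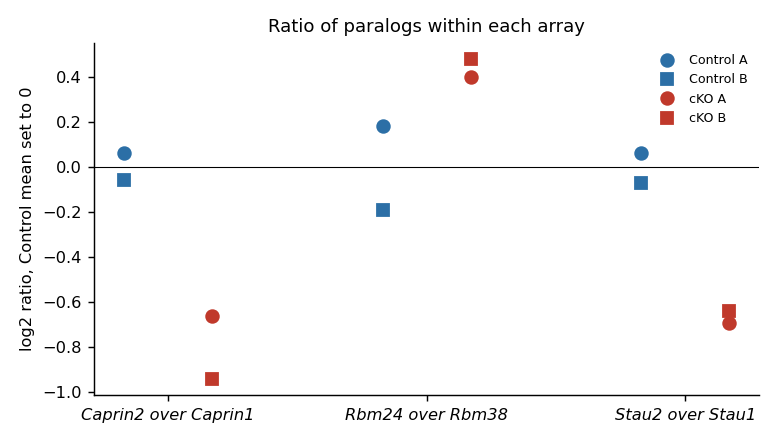
Log2 ratio of the signals of paralogous genes within each array, with the Control mean of each pair set to 0 (circles replicate A, squares replicate B; blue Control, red cKO). The cKO lenses lay below the Control lenses for Caprin2 over Caprin1 and Stau2 over Stau1, by 0.80 and 0.66 in the mean, and above them by 0.44 for Rbm24 over Rbm38.

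The genes whose signals followed 3 of these proteins most closely over the 4 arrays were found by the Euclidean distance between log2 signals centred on each gene's mean. For Tdrd7 they included AI987944 and Tlr2, at distances of 0.0263 and 0.0363. For Rbm24 they were Gpr137b, EG665806 and Sp3os, at 0.0419 to 0.0621. For Caprin2 they were Gsta3, Sox2 and Cyp7b1, at 0.0319 to 0.0673. Such patterns are common among 4 arrays: 281 genes lay within 0.2 of Tdrd7, 221 of Rbm24 and 49 of Caprin2.

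Among mRNAs that are known to depend on these proteins, 4 of 5 could be tested. Hspb1, a small heat shock protein whose mRNA is reduced in Tdrd7-deficient lenses, had log2 signals of 11.50 and 11.52 in cKO lenses and of 12.15 and 12.22 in Control lenses and was called reduced, by 0.68 ± 0.14 on the log2 scale (SE, limma adjusted p = 0.0274). The Hspb1 call was lost without cKO A, cKO B or Control B, at adjusted p up to 0.151. It also ended with the deposited table at values under 1 set to 1 (0.0888), without the detection filter (0.111) and with treat. Crybb3, a beta crystallin also linked to TDRD7, overlapped between the groups, with 13.36 and 13.08 against 13.34 and 13.32 (limma adjusted p = 0.663). Sox2, whose mRNA RBM24 stabilizes in the developing eye, had log2 signals of 5.32 and 4.97 in cKO lenses and of 6.03 and 5.68 in Control lenses. The groups lay apart, but the difference, -0.71 ± 0.19 on the log2 scale (SE, limma adjusted p = 0.055), did not pass the test. It passed in 4 of 18 alternatives with all 4 arrays, at adjusted p of 0.0138 to 0.049. Cdkn1a encodes p21, a cell cycle inhibitor whose mRNA RBM38 and HuR stabilize. It was detected on both cKO arrays and on 0 Control arrays, and its signal in cKO lenses was higher by at least 15.3-fold (limma adjusted p = 0.0045). The cKO lenses differed widely, with log2 signals of 7.98 and 9.38, and cKO A alone gave at least 9.39-fold and cKO B alone at least 24.9-fold. The fitted log2 difference was 4.20, but 2.80 with no background correction, and the call ended with the deposited table at values under 1 set to 1 (adjusted p = 0.0572) and without the detection filter (0.0613). The neural PTB paralog Ptbp2 had 0 of 3 probes detected in at least 2 samples and was not tested.

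Other genes of RNA granules moved in both directions or did not pass the test. Of 25 stress granule genes 22 were tested, 1 was called elevated and 2 reduced (6.01% and 5.67% of all genes), with a median log2 fold change of -0.10. Larp1, which binds mRNA with a terminal oligopyrimidine tract, had log2 signals of 5.88 and 6.10 in cKO lenses and of 4.92 and 4.66 in Control lenses (log2 fold change 1.20 ± 0.16, SE, limma adjusted p = 0.0109), and it was above background on 1 of the 2 Control arrays. Pabpc1, the cytoplasmic poly(A)-binding protein, was reduced with 7.81 and 7.97 against 8.42 and 8.89 (log2 fold change -0.76 ± 0.19, limma adjusted p = 0.0465).

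Of 23 processing body genes, which include decapping factors and Argonaute proteins, 19 were tested and 0 were called by limma. Dcp2 and Ago1 were among those not tested. Of the 19, 5 had an unadjusted p under 0.05 (31.9% of all genes). The log2 fold changes ran from -0.54 to 0.69, with a median of 0.07. Of 22 genes of mRNA transport and localization 20 were tested, 2 were called reduced and 0 elevated (5.67% and 6.01% of all genes), with a median of -0.12. The reduced genes were Cpeb3, a regulator of translation through the poly(A) tail, with 6.84 and 6.47 against 7.71 and 7.34 (log2 fold change -0.87 ± 0.20, SE, limma adjusted p = 0.0357), and Igf2bp2, which protects mRNA from decay, with 8.91 and 8.82 against 9.54 and 9.63 (-0.72 ± 0.14, adjusted p = 0.0245). Of 17 relatives of the proteins, other Tudor domain, ELAV, PTB and hnRNP L genes, 10 were tested. Without cKO A, cKO B, Control A or Control B in turn, 1, 0, 4 and 0 genes of the stress granule, processing body and transport lists were called, in place of 5. Among the relatives, Tdrd9, a Tudor domain helicase of germ cells, was called elevated (limma adjusted p = 0.0495) and was not above background on either Control array, with a difference of at least 1.19-fold.

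**Figure D5:**
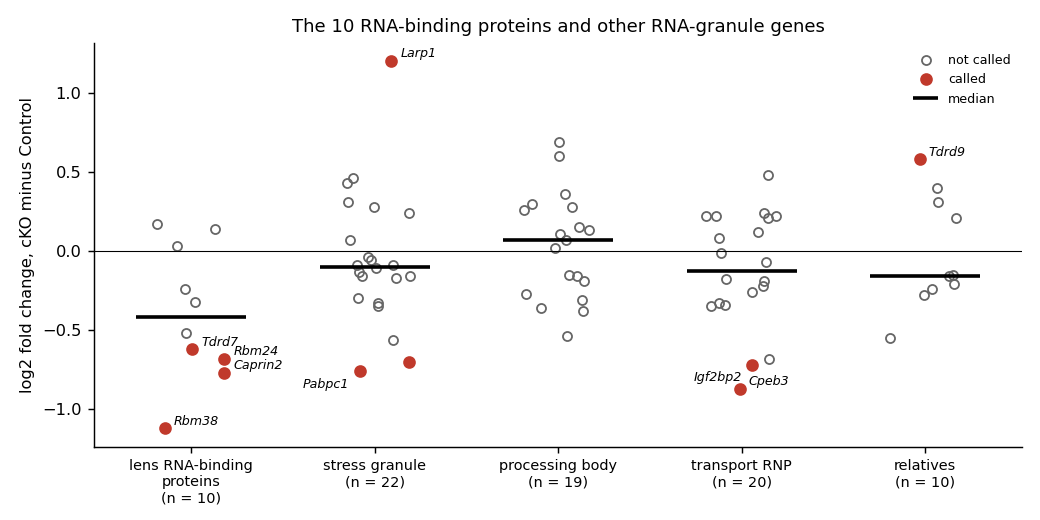
Log2 fold change, cKO minus Control, of the 10 RNA-binding proteins and of the tested genes of 4 lists (relatives are other Tudor domain, ELAV, PTB and hnRNP L genes); filled red dots are called, open dots are not, and bars are medians. The median of the 10 was -0.42, and those of the lists were -0.10, 0.07, -0.12 and -0.15 from left to right.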

How the data were processed

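RNA of 4 mouse lenses was hybridized to bead arrays. The authors deposited unnormalized and normalized signal intensity for each probe, exported from the scanner's software, with detection p-values that rank a probe against negative control beads. Rank-invariant scaling of the normalized table is stated per the file headers. Shifted cells in 18 lines of the other file led to the removal of these probes. Probes were named through a RefSeq table (GRCm38.p6), which matched 29586 probes by Entrez identifier.

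Unnormalized intensity was background corrected and quantile normalized with limma's neqc (limma version 3.58.1 under R version 4.3.3, offset 16), giving log2 values. Retained probes had detection p-values below 0.05 on 2 or more arrays, a gene's probes were averaged, and groups were compared with lmFit and eBayes, two-sided, with p-values adjusted (Benjamini-Hochberg) across 11517 genes. Thresholds were an adjusted p of 0.05, a log2 fold change of 0.58 and a mean log2 signal of 4.6, the numbers used in the study. The study set 4.6 on its own array signal. Here it was applied to background corrected values with an offset of 16, so it need not cut at the same intensity. Without it 1346 genes were called in place of 1345. The authors used edgeR, a count model, which was not applied to these intensities. An "at least" fold sets a group's mean against the lowest signal of detected probes where the other group was below background. Tables were read with Python version 3.11.15, and the fit was tested on simulated data. With 200 changed genes per simulation, fewer than the 1345 called here, 4.36% of true log2 changes of 0.7 were called. For changes of 1 and 1.5 it was 45.5% and 77.7%, and 5.59% of the calls were false. The 10 genes and the gene lists were chosen with earlier results of these data known. Named genes are the 10, Celf1, sex-linked transcripts, the known targets, up to 3 called genes in each direction of each list, and the 3 nearest patterns of Tdrd7, Rbm24 and Caprin2; Bfsp2 and Foxe3 were named after their values were seen, and 2 genes that the rule would name are not reported here. Blood and vessel markers (2 of 3 and 4 of 4 tested) gave 0 calls by limma (0 and 2 at an unadjusted p under 0.05), and pigment cell and corneal markers were not tested, as 0 passed the filter (2 of each were detected on cKO B alone). The number of arrays limits the precision.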

Additional observations from a re-analysis of the deposited data

How the results depend on the processing

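With 2 arrays in each group, the calls were fragile. The count of the 10 genes called was 0 with the deposited normalized table (values under 1 set to 1; 4 with 16 added to each value), 0 without the detection filter, 0 with treat against the fold threshold and 0 to 1 with 1 sample left out. Over all genes, 7 were called with the deposited normalized table at values under 1 set to 1 (1192 with 16 added). Without the detection filter 155 of 28843 genes were called, and with treat 82 of 11517. The count of the 10 was 5, Stau2 included, with medians matched over the probes detected on every array, where 2693 of all 11517 genes were called. With the same median for each array the count of the 10 was 3, all elevated, and with no normalization between arrays 4, all elevated. There 5417 and 5789 of all 11517 genes were called in either direction, and the median of all genes was 0.53 and 0.57. On these 2 scales in turn, the log2 fold changes were 0.06 and 0.09 for Rbm24, 0.04 and 0.07 for Caprin2, 0.10 and 0.14 for Stau2, 0.49 and 0.53 for Elavl1, 0.55 and 0.59 for G3bp1, 0.04 and 0.08 for Hspb1, and 0.33 and 0.37 for Crybb3. Relative to the median of all genes these were below 0 except for G3bp1 (0.02 on both). Crybb3 was at 0.20 by its brightest probe and from -0.24 to 0.04 with 1 sample left out, and Caprin1 from -0.07 to 0.12.

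The count of probes of the 10 genes called was 8, all elevated, on either of those 2 scales, 0 with the deposited normalized table at values under 1 set to 1 (6, all reduced, with 16 added), 0 without the detection filter or with treat, and 0 to 4 with 1 sample left out. The count of RNA granule genes called (stress granule, processing body and transport lists, 5 in the main setting) was 0 with the deposited normalized table at values under 1 set to 1 (5 with 16 added), 0 without the detection filter or with treat, 3 with no background correction, 32 with the same median for each array and 34 with no normalization (all elevated), 12 with medians matched over the probes that all 4 samples detected, 8 at a detection p under 0.01 and 0 to 4 with 1 sample left out. In the main setting 61 RNA granule genes were tested. Over all genes, 719 of 11517 were called with no background correction and 1475 of 9596 at a detection p under 0.01. The counts over all genes in the other settings with all 4 arrays are given above. The differences of the 3 paralog ratios kept their signs under every alternative run. They ran from -0.94 to -0.44 for Caprin2 over Caprin1, 0.25 to 0.62 for Rbm24 over Rbm38 and -0.86 to -0.42 for Stau2 over Stau1. The cause of these shifts was not tested.

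Whether the replicate letters pair the samples is not given in the sources used here. The differences of A minus B in the groups correlated at -0.0105 across genes. With a single such difference in each group, this value cannot decide whether the samples were paired. With the letter as a replicate block, 1745 genes were called in place of 1345, 8 RNA granule genes were called and 4 of the 10 genes were called. Over all genes, leaving out cKO A gave 514 calls, cKO B 169, Control A 1311 and Control B 113. A block for the slide could not be fitted, since no slide is named in the files.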
